A study of Mus musculus with 6 samples.

Results

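DNA break and Fanconi repair genes were compared between untreated and doxycycline-treated cultures of mouse breast carcinoma cells carrying a doxycycline-inducible LINE-1 (L1) retrotransposon. The genes were 40 named components of the pathways that sense, signal and mend broken or crosslinked DNA. They were taken by symbol from a table of 24421 genes, and 40 of 40 were present and had enough counts to be tested among 13084 genes. No repair gene passed an adjusted p of 0.05 (0 of 40), where 3.09% of all tested genes did. Under 17 alternative settings, H2afx passed in 4, Xrcc3 in 2, and Atm and Nbn in 1 each. For 39 of the 40 genes the 95% interval of the log2 fold change stayed within 0.5 of no change. The 5 genes with the smallest p were H2afx and Brca1, which were lower with doxycycline, and Xrcc3, Atm and Nbn, which were higher, by at most 0.31 on the log2 scale.

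The cells were 4T1, a line from a mammary carcinoma whose strain is labelled BALB/cfC3H, in the derivative 4T1-tetL1(GLucAI). All 6 libraries came from this derivative, a blasticidin-selected stable population into which a PiggyBac transposon had carried the cassette. In it the constitutive EF1α promoter drives the doxycycline-dependent activator together with blasticidin resistance. A doxycycline-responsive bidirectional promoter drives firefly luciferase on one side and, on the other, a recoded mouse L1 whose Gaussia luciferase reporter becomes active after retrotransposition. The 3 untreated libraries (given as vehicle in the treatment label) were compared with 3 libraries from cells given doxycycline at 400 ng/mL for 48 h. No library of cells without the cassette was analysed here, so an effect of doxycycline itself and an effect of L1 cannot be told apart. The cassette transcripts were not analysed here, so each direction rests on the labels.

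A double-strand break is first bound by the MRN complex (Mre11, Rad50 and Nbn), which activates the kinase Atm. Atm phosphorylates the histone variant H2AX, on which Mdc1, Rnf8, Rnf168 and 53BP1 assemble, while Atr and its target Chek1 respond to single-stranded DNA and stalled forks. The break is then either joined end to end by the Ku and DNA-PKcs machinery or copied from the sister chromatid by homologous recombination. Interstrand crosslinks and stalled forks are handled by the Fanconi pathway, in which a multi-subunit core ubiquitin ligase modifies the Fancd2 and Fanci pair (the ID complex) and so brings in nucleases held by the scaffold Slx4. The L1 endonuclease nicks genomic DNA during insertion, and several of these pathways are known to act on L1. Much of their regulation is by protein modification, which RNA levels do not measure.

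Total RNA was depleted of ribosomal RNA and sequenced, and the libraries held 31653464 to 43631312 counted reads. The level of a gene was expressed in CPM, its share of the library's counts on a scale common to all libraries, after scaling by TMM, a method that aligns libraries on the bulk of their genes, with SD over 3 libraries. At this depth 3 counts, the limit of detection, correspond to 0.0683 to 0.0944 CPM. Member counts ranged from 97 to 16364 per library, and 39 members had at least 100 in every library. The median coefficient of variation between replicates was 3.67% in untreated and 4.7% in doxycycline libraries, against a median of 2.55% from counting alone. Epithelial markers (Epcam, Krt8, Krt18, Krt19, Krt7 and Cldn7) were all detected (6 of 6) and summed to 1510 to 1580 CPM in untreated and 1450 to 1670 CPM in doxycycline libraries. Leukocyte markers summed to 8.83 to 11.6 CPM over all libraries, almost all of it Cd68, with Adgre1 at 0. Endothelial markers summed to 0.245 to 0.679 CPM. Fibroblast markers summed to 35.2 to 37.6 CPM untreated and 27.4 to 28.6 CPM with doxycycline, almost all of it Pdgfra, with Lum at 0 in all libraries. The part of this marker difference in the results was not tested. In bulk RNA, fewer cells of a type and less RNA per cell cannot be told apart.

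The repair genes differed far more from one another than between the groups. To compare genes, CPM was divided by the length in kilobases of the longest protein-coding transcript. On this scale the untreated levels ran from 0.549 CPM per kb for Rnf8, a ubiquitin ligase of the break response, to 282.5 CPM per kb for H2afx. The exons of Rnf8 share 13.18% of their bases with Rnf8-cmtr1 on the same strand, and the effect on its level was not tested. The median member was at 8.22 CPM per kb against 8.45 for all tested genes with a length, and 20 of 40 members were above that value. H2afx was at percentile 98.7 of the tested genes. It was followed by the nuclease subunit Ercc1 (55.85 CPM per kb), the strand-break sensor Parp1 (42.69), the Ku80 gene Xrcc5 (33.82) and Rad50 (22.78). Members of the MRN complex were among the higher ones, with a median of 17.53 CPM per kb, and break and checkpoint signalling had a median of 12.66. The Fanconi core (6.158), the ID complex (6.076) and homologous recombination (6.739) were lower, with Fancc at 2.31, Rad51b at 2.914 and Rad51c at 2.976 CPM per kb.

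**Figure D1:**
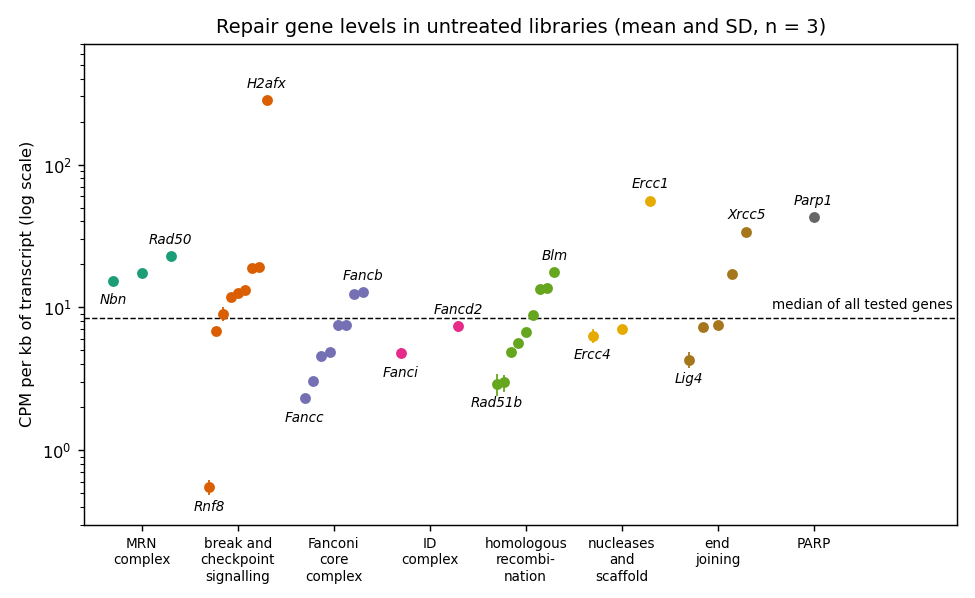
Mean level in the 3 untreated libraries (CPM per kb of transcript, log scale; bars are SD) of each of the 40 repair genes, grouped by sub-pathway, with the median of all tested genes dashed. H2afx stands highest at 282.5 and Rnf8 lowest at 0.549, and Fanconi genes lie on both sides of the dashed line at 8.45.

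Ratios per kb were read for 9 pairs of genes whose products work together, and in 7 of the 9 the groups overlapped. The ratio of Xrcc5 to Xrcc6, which encode the Ku heterodimer, was 1.96 ± 0.0268 per kb in untreated and 1.92 ± 0.0904 in doxycycline libraries. Ercc1 exceeded Ercc4, the catalytic subunit of the same nuclease, by 8.87 ± 0.667 untreated and 8.89 ± 0.277 with doxycycline. The ratio of Fancd2 to Fanci was 1.452, 1.591 and 1.585 in untreated and 1.845, 1.606 and 1.735 in doxycycline libraries. All doxycycline values of that ratio were above the untreated values, the nearest pair being 1.591 and 1.606. The ratio of Brca1 to its partner Palb2 was 2.82 ± 0.0742 untreated and 2.56 ± 0.217 with doxycycline, again without overlap. The nearest pair was 2.737 untreated and 2.724 with doxycycline, and the lowest value was 2.316 in doxycycline replicate 3. Nearer to equal were Rad50 to Mre11a at 1.30 ± 0.0649 untreated and 1.25 ± 0.0286 with doxycycline, and Mre11a to Nbn at 1.14 ± 0.0469 and 1.06 ± 0.103. The ratio of Lig4 to Xrcc4 was 0.570 ± 0.0549 and 0.556 ± 0.0384, that of Atr to Chek1 0.626 ± 0.0317 and 0.587 ± 0.0105, and that of Atm to Chek2 1.49 ± 0.164 and 1.67 ± 0.148. These ratios were not tested.

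A gene was called when its p from edgeR's quasi-likelihood test, after Benjamini-Hochberg adjustment over the 13084 tested genes, was under 0.05. By this rule 0 of 40 members were called higher and 0 lower with doxycycline, where 3.09% of all tested genes were called, 0.925% higher and 2.16% lower. At an unadjusted p under 0.05 there were 5 members (12.5%), against 16.2% of all tested genes, with 3 higher and 2 lower against 7.25% and 8.95%. DESeq2's Wald test called 1 member, H2afx, lower, among 324 genes that it called lower, and limma voom called 0 members. The groups did not overlap for 9 members (22.5%), against 21.3% of tested genes. Of these, 8 were higher with doxycycline (Nbn, Atm, Chek1, Xrcc3, Blm, Xrcc4, Xrcc6 and Parp1) and 1 lower (Brca1), against 10.1% and 11.1% of tested genes. The log2 fold change was above 0 for 27 members and below 0 for 13 (32.5%), where 49.2% of all tested genes were below 0. The split was 23 and 17 when the libraries were scaled by size alone or by upper quartile. Under TMM scaling the median log2 fold change was 0.04, against 0.002 for all tested genes. The SD of the members' median level between replicates was 0.022. The summed level of the 40 genes was 2505.5 ± 26.05 CPM untreated and 2502.2 ± 44.24 CPM with doxycycline, a difference of -0.133%. The largest part of that sum was H2afx, at 390.99 ± 22.31 CPM untreated and 338.16 ± 38.05 CPM with doxycycline. The sum alone therefore does not describe the remaining genes.

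The median standard error of a member's log2 fold change was 0.06, against 0.08 for all tested genes. The 95% interval lay within 0.5 log2 units of 0 for 39 members (all except Xrcc3) and within 0.25 for 27. These intervals are for single genes and are not adjusted over the tested genes. The call by adjusted p is stricter: Xrcc3 was not called although its interval excludes 0. The intervals are therefore not the smallest difference that could be called.

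**Figure D2:**
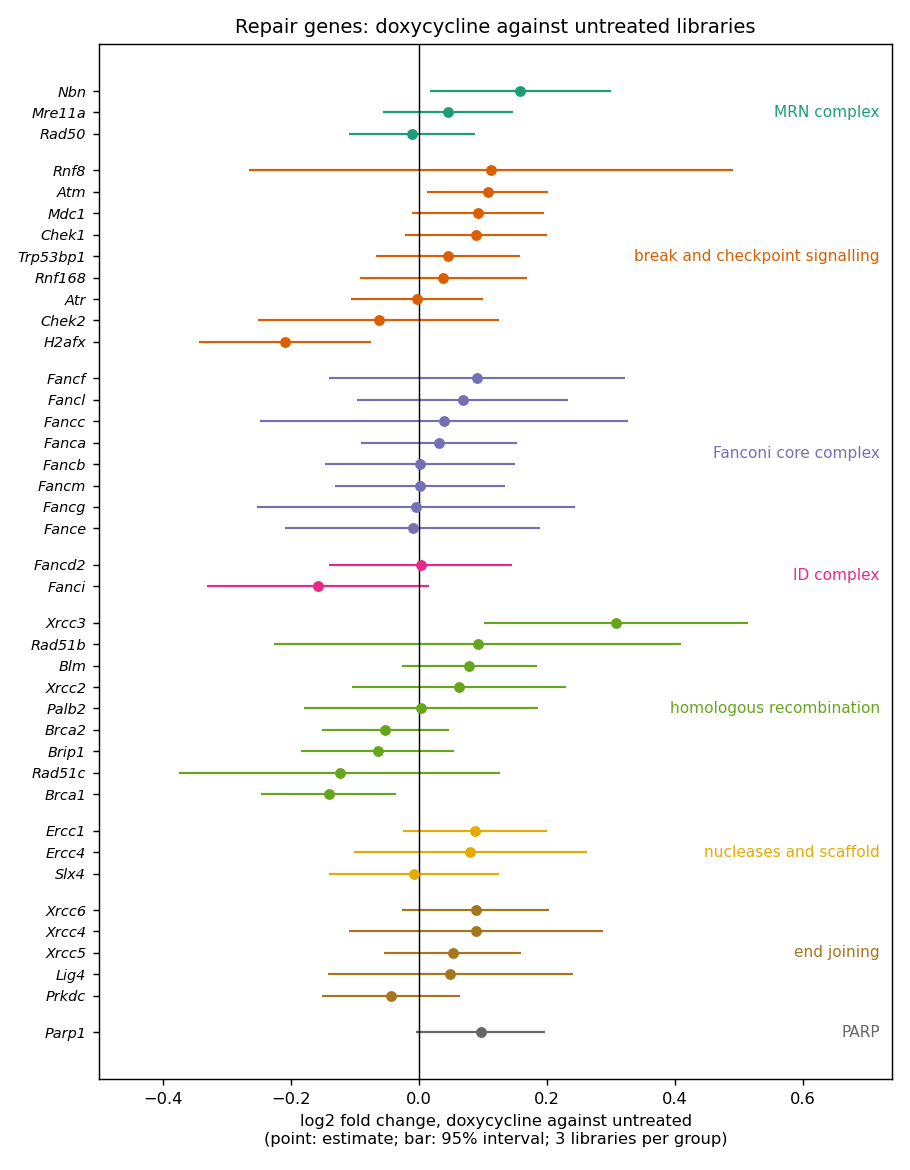
Log2 fold change of each repair gene, doxycycline against untreated (3 libraries per group), with its 95% interval from the edgeR fit, grouped by sub-pathway. The estimates run from -0.21 for H2afx to 0.31 for Xrcc3, and the intervals of 5 genes exclude 0.

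Among the sensors, the log2 fold changes of the 3 MRN genes had a median of 0.04 (2 above 0 and 1 below). Nbn, which links the complex to Atm (chr4:15957587-15992589, plus strand, GRCm38), was at 38.645, 39.029 and 39.067 CPM in untreated and 47.9, 40.31 and 42.214 CPM in doxycycline libraries. The groups did not overlap, but the second doxycycline library was close to the untreated ones, which lay together. The log2 fold change was 0.16 (SE 0.07, 95% interval 0.02 to 0.30, adjusted p = 0.243). It was 0.08 when doxycycline replicate 1 was left out (adjusted p = 0.555) and 0.21 when doxycycline replicate 2 was left out (adjusted p = 0.0462). Rad50, the ATPase that bridges the ends, was the highest of the complex per kb, at 115.14, 120.08 and 116.88 CPM untreated and 118.07, 119 and 112.41 CPM with doxycycline. Its groups overlapped throughout (log2 fold change -0.01, adjusted p = 0.944). Mre11a, the nuclease, went from 99.2 ± 3.47 to 102 ± 1.47 CPM (n = 3 each, adjusted p = 0.711).

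In break and checkpoint signalling 6 of 9 genes were above 0 and 3 below, with a median of 0.05. Of the 9, 2 (22.2%) had an unadjusted p under 0.05, H2afx lower and Atm higher, against 16.2% of tested genes. Groups did not overlap for 2 of 9 (22.2%), against 21.3% of tested genes. H2afx (current symbol H2ax, chr9:44334715-44336077, plus strand) encodes the histone variant H2AX. It was at 372.65, 415.82 and 384.5 CPM in untreated libraries and 316.5, 315.89 and 382.1 CPM with doxycycline. The third doxycycline library was inside the untreated range and the other two were below it. The log2 fold change was -0.21 (SE 0.06, 95% interval -0.34 to -0.08, adjusted p = 0.0893). Over the 17 settings its adjusted p ranged from 0.000841 to 0.536. Leaving out doxycycline replicate 3 gave -0.31 (adjusted p = 0.00599) and leaving out doxycycline replicate 2 gave -0.16 (adjusted p = 0.536). The group's summed level, in which H2afx weighs most, was 973.41 ± 21.13 CPM untreated against 947.21 ± 43.16 CPM with doxycycline (-2.69%).

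Atm (chr9:53437122-53536828, minus strand), the kinase activated by MRN, was at 131.3, 130.45 and 129.72 CPM untreated and 143.98, 136.31 and 141.48 CPM with doxycycline. All doxycycline libraries were above all untreated ones. The log2 fold change was 0.11 (SE 0.05, 95% interval 0.01 to 0.20, adjusted p = 0.237). The promoter of Atm is shown as an example of a member promoter with 1 CCAAT box and 1 GC box (chr9:53536622-53536921, GRCm38.p6, minus strand, from RefSeq). Each promoter window runs from 250 bases before to 50 after the transcript start that the promoter table uses, and for Atm and Xrcc3 that start lies inside the outer boundary of the gene given here. Capitals mark the CCAAT box, the GC box GGGCGG and the E2F letters TTCGCGC or else TTGGCGC, read on either strand.

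Atm: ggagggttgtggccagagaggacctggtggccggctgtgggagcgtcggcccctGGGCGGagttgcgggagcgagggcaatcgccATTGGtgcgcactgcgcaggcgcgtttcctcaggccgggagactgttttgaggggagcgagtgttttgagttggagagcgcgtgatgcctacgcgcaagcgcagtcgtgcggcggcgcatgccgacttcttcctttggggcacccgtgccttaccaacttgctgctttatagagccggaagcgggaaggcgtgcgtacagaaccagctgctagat

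Chek1, the checkpoint kinase downstream of Atr, did not overlap either, at 72.2 ± 1.59 CPM untreated and 76.8 ± 2.76 CPM with doxycycline (log2 fold change 0.09, adjusted p = 0.429). Atr was at 98.672, 97.541 and 93.061 CPM against 97.248, 93.918 and 97.516 CPM, with a log2 fold change of -0.003 that became 0.02 after a correction for GC content and length. Mdc1, which reads phosphorylated H2AX, went from 137 ± 6.92 to 147 ± 5.11 CPM (log2 fold change 0.09, adjusted p = 0.372). Chek2, the Atm target, had a log2 fold change of -0.06 (adjusted p = 0.795), Trp53bp1, encoding 53BP1, 0.05 (adjusted p = 0.738), and the ligase gene Rnf168 0.04 (adjusted p = 0.829). Rnf8 was measured least well, with a log2 fold change of 0.11 and an interval from -0.27 to 0.49.

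The 8 genes of the Fanconi core had log2 fold changes between -0.01 and 0.09 with a median of 0.02. Of the 8, 0 had an unadjusted p under 0.05, against 16.2% of tested genes. Groups that did not overlap were seen for 0 of 8, against 21.3% of tested genes. Fancl, the ubiquitin ligase subunit, had the smallest p, with 20.495, 21.703 and 19.306 CPM untreated and 22.142, 21.184 and 21.159 CPM with doxycycline. Its groups overlapped (log2 fold change 0.07, adjusted p = 0.733). Fancb, the highest of the core per kb, was at 39.715, 39.478 and 34.634 CPM untreated and 37.49, 35.779 and 40.752 CPM with doxycycline. The remaining estimates were 0.09 for Fancf, 0.04 for Fancc, 0.03 for Fanca, 0.002 for Fancm, which recognises the stalled fork, -0.005 for Fancg and -0.01 for Fance. Those of Fancb (0.002) and Fancm were below 0 under scaling by library size or upper quartile. The core's summed level was 188.87 ± 8.24 CPM untreated and 191.78 ± 5.547 CPM with doxycycline.

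In the ID complex, which the core modifies, the estimates were apart for the pair, though neither passed the test. Fancd2 was at 38.622, 38.429 and 44.861 CPM untreated and 41.862, 40.236 and 40.072 CPM with doxycycline, with a log2 fold change of 0.003 that went below 0 under scaling by library size. Fanci was at 22.408, 20.354 and 23.846 CPM untreated and 19.122, 21.11 and 19.461 CPM with doxycycline. One doxycycline library of Fanci lay inside the untreated range (log2 fold change -0.16, 95% interval -0.33 to 0.02, adjusted p = 0.362). The exons of Fanci share 15.95% of their bases with Polg on the opposite strand. In the same way those of Fancl share 13.7% with Vrk2, of Trp53bp1 15.04% with Tubgcp4 and of Fancf 14.96% with Gas2. Those of Fanca share 10.5% with Zfp276 and those of Xrcc6 7.69% with Desi1. The strand setting of the counting was not given in the sources used here, and without it reads of such pairs cannot be told apart. For Rnf8 the overlap of 13.18% with Rnf8-cmtr1 is on the same strand, where a strand setting does not separate reads.

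In homologous recombination 5 of 9 genes were above 0 and 4 below, with a median of 0.004 that went below 0 under scaling by library size or upper quartile. Xrcc3 (chr12:111803192-111813893, minus strand), whose product pairs with that of Rad51c, was at 13.345, 14.718 and 12.844 CPM untreated and 15.38, 18.979 and 16.118 CPM with doxycycline. The groups did not overlap, and the second doxycycline library was the highest. The log2 fold change was 0.31 (SE 0.10, 95% interval 0.10 to 0.51, adjusted p = 0.103). Of the other recombination genes, the log2 fold change was 0.09 for Rad51b, 0.06 for Xrcc2 and -0.12 for Rad51c (adjusted p = 0.832, 0.761 and 0.669).

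Brca1 (chr11:101488761-101551955, minus strand), which promotes resection and brings in Palb2 and Brca2, was at 90.565, 87.529 and 91.458 CPM untreated and 79.383, 83.24 and 81.764 CPM with doxycycline. All doxycycline libraries were below all untreated ones. The log2 fold change was -0.14 (SE 0.05, 95% interval -0.25 to -0.04, adjusted p = 0.148), with an adjusted p between 0.0531 and 0.436 over the 17 settings tried. Of the genes that act with it, Brca2 had a log2 fold change of -0.05 (adjusted p = 0.642), the helicase gene Brip1 -0.06 (adjusted p = 0.632) and Palb2 0.004 (adjusted p = 0.988), which went below 0 under scaling by library size or upper quartile. Blm, the RecQ helicase and the highest of the group per kb, was at 83.506, 85.581 and 82.994 CPM untreated and 89.92, 85.763 and 90.594 CPM with doxycycline. These did not overlap, with the second library of each group nearly equal (log2 fold change 0.08, adjusted p = 0.467).

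The promoters of Xrcc3 and Brca1 are shown because they are the recombination genes with the smallest p in each direction, and they differ in the letters they hold. That of Xrcc3 (chr12:111813830-111814129, minus strand) held 6 matches to CCAAT and 4 to GGGCGG, and that of Brca1 (chr11:101551906-101552205, minus strand) held 1 to CCAAT and 1 to TTGGCGC. Build, source and capitals are as for Atm.

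Xrcc3: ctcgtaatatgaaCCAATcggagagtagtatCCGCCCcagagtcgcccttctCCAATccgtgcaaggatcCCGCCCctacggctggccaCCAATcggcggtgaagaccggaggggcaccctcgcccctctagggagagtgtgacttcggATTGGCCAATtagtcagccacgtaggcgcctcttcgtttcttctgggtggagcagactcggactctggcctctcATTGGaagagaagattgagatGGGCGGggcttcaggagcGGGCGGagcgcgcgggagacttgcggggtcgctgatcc

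Brca1: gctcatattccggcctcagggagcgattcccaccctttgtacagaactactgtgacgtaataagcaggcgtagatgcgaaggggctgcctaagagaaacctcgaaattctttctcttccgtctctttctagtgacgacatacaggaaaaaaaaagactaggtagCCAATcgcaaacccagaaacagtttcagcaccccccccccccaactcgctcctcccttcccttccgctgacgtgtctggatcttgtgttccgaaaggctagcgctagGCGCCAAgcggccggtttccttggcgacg

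Promoter sequences were matched for 34 of 40 members (entries for Rad50, Nbn, H2afx, Fancd2, Xrcc2 and Prkdc were not used here), 1 per gene. CCAAT, the letters bound by NF-Y, occurred in 21 of 34 (61.8%) against 39.2% of 10271 promoters of tested genes, and in 6 of 8 Fanconi core and 6 of 8 recombination promoters. TTCGCGC or else TTGGCGC, the letters of E2F sites, occurred in 7 of 34 (20.6%: Fancf, Fancm, Brca1, Brip1, Rad51c, Ercc1 and Lig4) against 7.3%. GGGCGG occurred in 22 (64.7%) against 64.0%. CCAAT and TTGGCGC can overlap by 4 letters when read on opposite strands, and a match is a description of the sequence only.

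**Figure D3:**
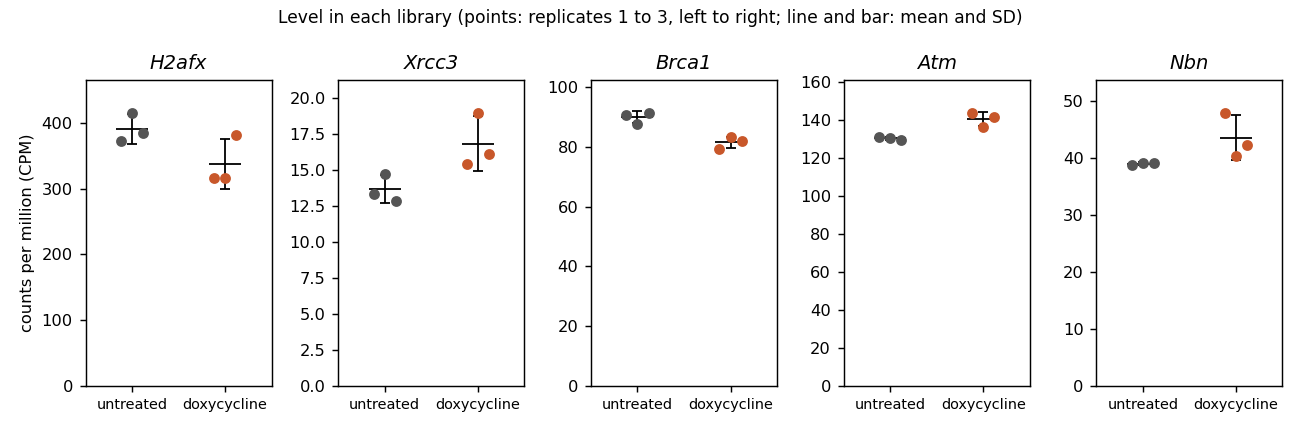
Level (CPM, axes from 0) in each library of the 5 repair genes with an unadjusted p under 0.05; points are libraries, lines and bars mean and SD (n = 3). The groups overlap for H2afx, where 1 doxycycline library is at 382.1, and not for Xrcc3, Brca1, Atm and Nbn.

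The nucleases and their scaffold had a median log2 fold change of 0.08 (2 above 0 and 1 below). Ercc1, smallest in p and highest in level of the 3, was at 77.357, 78.986 and 74.048 CPM untreated and 85.642, 81.477 and 77.767 CPM with doxycycline. The third doxycycline library lay between untreated ones (log2 fold change 0.09, adjusted p = 0.451). Ercc4 had a log2 fold change of 0.08 (adjusted p = 0.709) and Slx4 of -0.01 (adjusted p = 0.971).

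In end joining, 4 of 5 genes were above 0 and 1 below, with a median of 0.05. An unadjusted p under 0.05 was reached by 0 of 5, against 16.2% of tested genes. Groups did not overlap for 2 of 5 (40%), both higher with doxycycline, against 21.3% of tested genes. Xrcc6, encoding Ku70, was at 58.138, 56.385 and 55.756 CPM untreated and 60.292, 59.069 and 61.78 CPM with doxycycline, without overlap (log2 fold change 0.09, adjusted p = 0.452). Xrcc5 was at 89.381, 84.502 and 85.37 CPM untreated and 93.348, 88.603 and 87.119 CPM with doxycycline, with overlap (log2 fold change 0.05, adjusted p = 0.67). Xrcc4, the ligase cofactor, did not overlap at 0.09 (adjusted p = 0.708), while Lig4, the ligase, was at 0.05 (adjusted p = 0.851) and Prkdc, encoding the catalytic subunit of DNA-PK, at -0.04 (adjusted p = 0.738). Parp1, the sensor of strand breaks, was at 167.29, 165.56 and 163.18 CPM untreated and 172.42, 188.59 and 169.33 CPM with doxycycline. Its groups did not overlap and the second doxycycline library was the highest (log2 fold change 0.10, adjusted p = 0.332).

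Library by library, the medians of the sub-pathways lay close together. The deviation of each gene from its mean over 6 libraries, taken as a median over the group, was -0.02, -0.04 and -0.06 in untreated and 0.01, 0.03 and 0.01 in doxycycline libraries for the MRN complex. It was the only sub-pathway of more than 1 gene whose library medians did not overlap. The summed levels of its 3 genes did overlap, at 256.94, 257.16 and 252.48 CPM untreated and 267.75, 263.39 and 255.98 CPM with doxycycline. The library medians of the 55 further repair genes read below did not overlap either. They were -0.02, -0.02 and -0.05 untreated and 0.01, 0.01 and 0.03 with doxycycline. For scale, the groups did not overlap for 21.3% of single tested genes, and no such share was computed for medians of several genes. For homologous recombination the library medians were 0.01, -0.01 and -0.0003 untreated and 0.03, -0.06 and 0.02 with doxycycline.

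**Figure D4:**
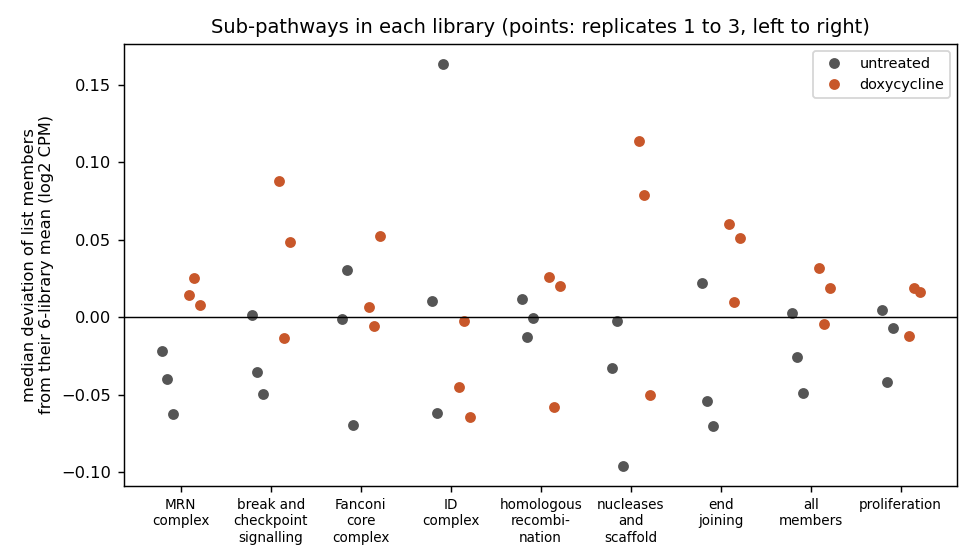
Median deviation of each sub-pathway's genes from their mean over the 6 libraries (log2 CPM), 1 point per library, with all 40 members and the proliferation genes at the right. Parp1, a group of 1 gene, is not drawn, and of the columns drawn the untreated and doxycycline points do not overlap for the MRN complex.

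A wider list was read for comparison. Of 55 further genes of these pathways, 37 were above 0 and 18 below with a median log2 fold change of 0.04. At an adjusted p under 0.05, 0 were called, against 3.09% of tested genes. Unadjusted p under 0.05 was reached by 8 (14.5%), with 8 higher and 0 lower, against 16.2% of tested genes, 7.25% higher and 8.95% lower. The smallest p were those of Helq, a helicase of crosslink repair, at 29.217, 32.314 and 28.733 CPM untreated and 32.458, 35.657 and 37.329 CPM with doxycycline (log2 fold change 0.23, SE 0.07, adjusted p = 0.102), and of Bard1. Bard1, the obligate partner of Brca1, was at 109.69, 107.64 and 107.37 CPM untreated and 120.77, 117.94 and 117.76 CPM with doxycycline (log2 fold change 0.13, SE 0.05, adjusted p = 0.132). Bard1 was thus higher in 3 of 3 doxycycline libraries where Brca1 was lower in 3 of 3. Many repair genes are cell-cycle regulated, so 26 proliferation genes were read beside them. They summed to 6513.9 ± 104.8 CPM untreated and 6525.7 ± 53.51 CPM with doxycycline, and 0 were called, against 3.09% of tested genes. The largest parts of that sum were Mki67, at 1262.6 CPM untreated and 1237.7 CPM with doxycycline, and Top2a, at 1149.4 and 1070.5 CPM. The remaining genes are not described by the sum alone. Of the 26, 16 were above 0 and 10 below, with a median log2 fold change of 0.03. Their groups did not overlap for 26.9% (5 higher and 2 lower), against 21.3% of tested genes. An unadjusted p under 0.05 was reached by 5 (19.2%, 4 higher and 1 lower), against 16.2% of tested genes. The smallest p were those of E2f1 (37.46, 37.08 and 37.732 CPM against 42.491, 43.885 and 41.091 CPM, log2 fold change 0.18, adjusted p = 0.121) and of Mcm5 (log2 fold change 0.15, adjusted p = 0.123).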

How the data were processed

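RNA of 6 cultures of one cell line was sequenced after ribosomal RNA depletion with a strand-marking kit. Alignment by the authors used STAR with mm10, counting used featureCounts (Subread 1.6.2, bcl2fastq 2.20 per the labels), and raw counts per gene were deposited. The strand setting and the treatment of reads with several alignments are not given in the sources used here. Groups came from the labels, and the replicates are described as biological.

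From the deposited counts, genes were filtered with filterByExpr, scaled by TMM and tested with edgeR 4.0.16 (robust quasi-likelihood test, R 4.3.3, Benjamini-Hochberg over 13084 genes). The fit was tested on simulated data. DESeq2 1.42.0, limma 3.58.1 voom, other scalings and filters, GC content and length correction, a replicate block and leave-one-out were alternatives. The design used all 6 libraries without covariates. Each sub-pathway's genes of smallest p and of highest level per kb, and those with p under 0.05, are given in every library. Of the 2 other lists, the 2 genes of smallest p are named. Lengths came from GENCODE vM21 (GRCm38) and promoters from RefSeq. Intervals of 95% come from the fit. Replicate numbers did not pair the libraries. The members and lists were chosen with earlier results of these data known. Ribosomal Rn45s took 8.83 to 12.11% of counts and stayed in the library sizes.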

Additional observations from a re-analysis of the deposited data

How the results depend on the processing

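Over 17 settings 25 members kept the sign of their log2 fold change and 15 changed it in at least 1 setting, none of the latter called in any. The cause was not tested for the changes below.

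Calls over all genes and members moved as follows. With no filter there were 210 genes higher and 439 lower, with GC content and length correction 378 and 525, and with the replicate block and that correction 323 and 477. Without each library in turn, genes higher ranged from 44 (without untreated replicate 3) to 269 (without doxycycline replicate 2) and lower from 116 to 487, in the same 2 settings. H2afx was the 1 member called lower with no filter (-0.21, adjusted p = 0.000841), by the DESeq2 Wald test (adjusted p = 0.0412) and with the replicate block (adjusted p = 0.0369), and by leave-one-out members lower ranged from 0 to 1. With GC content and length correction 2 of 40 members were called higher, where 378 of 12988 tested genes were. These 2 were Atm (0.12, adjusted p = 0.0373) and Xrcc3 (0.29, adjusted p = 0.0437), and H2afx was not called (adjusted p = 0.471). By leave-one-out members higher ranged from 0 to 1, Xrcc3 without doxycycline replicate 1 (0.37, adjusted p = 0.0407) or Nbn without doxycycline replicate 2 (0.21, adjusted p = 0.0462). Members at an unadjusted p under 0.05 were 8 with GC content and length correction and 8 with the block added, and 3 (without untreated replicate 3) to 8 (without doxycycline replicate 2) by leave-one-out. The share of all tested genes at that p was not computed in these settings. Over the settings the adjusted p ranged from 0.0407 to 0.372 for Xrcc3, 0.0373 to 0.529 for Atm and 0.0462 to 0.555 for Nbn, and Brca1 was called in 0 of 17.

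The replicate numbers do not pair the libraries: deviations of same-numbered libraries correlated at -0.04, -0.004 and 0.02 over genes. The replicate block made no other call among members.

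Outside leave-one-out, the following estimates changed sign. With upper quartile factors it was Fancb (-0.00454), Fancm (-0.00493), Fancd2 (-0.00445) and Palb2 (-0.00327). With library size only it was Fancb (-0.00748), Fancm (-0.00811), Fancd2 (-0.00754) and Palb2 (-0.00670). With no filter it was Fancb (-0.000853), Fancm (-0.00135) and Fancd2 (-0.000397). With limma voom it was Fancg (0.00108), Fancm (-0.000266) and Palb2 (-0.000223). With GC content and length correction it was Rad50 (0.00215), Atr (0.0235) and Palb2 (-0.000604). With replicate block with GC content and length correction it was Rad50 (0.000822), Atr (0.0239) and Palb2 (-0.00243). By leave-one-out the medians ranged as follows: the median of all members from 0.0164 to 0.0561, the median of MRN complex from 0.0247 to 0.0737, the median of break and checkpoint signalling from 0.00494 to 0.0934, the median of Fanconi core complex from -0.0125 to 0.0441, the median of ID complex from -0.124 to -0.0130, the median of homologous recombination from -0.0620 to 0.0364, the median of nucleases and scaffold from 0.0158 to 0.121, the median of end joining from 0.0235 to 0.107 and the median of PARP from 0.0469 to 0.127. The members that changed sign ranged so: Rad50 from -0.0269 to 0.0144, Atr from -0.0287 to 0.0138, Chek2 from -0.121 to 0.0339, Rnf168 from -0.00409 to 0.0934, Fanca from -0.00621 to 0.0553, Fancb from -0.0598 to 0.0451, Fancc from -0.101 to 0.172, Fance from -0.0781 to 0.0416, Fancg from -0.0858 to 0.0809, Fancm from -0.0219 to 0.0268, Fancd2 from -0.0342 to 0.0789, Palb2 from -0.0747 to 0.0450, Rad51b from -0.0402 to 0.237, Slx4 from -0.0523 to 0.0158 and Lig4 from -0.0314 to 0.151.

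With 3 libraries per group detection is limited. The intervals given are not adjusted over the tested genes and are not the limit of the call.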
